A study of Mus musculus with 8 samples.

Results

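Fragments of the methionine tRNAs were examined in β-cells of wild type and db/db mice. The members were all lines of the deposited table named iMet-CAT, the initiator tRNA, or Met-CAT, the elongator tRNA, and made up 84 of its 2226 tRNA-derived fragment (tRF) sequences. There were 45 sequences of iMet-CAT and 39 of Met-CAT, and none of them was contained in, or contained, a sequence of another tRNA name.

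Small RNA was sequenced from β-cells sorted by flow cytometry from pancreatic islets of 8-week-old male mice, with 4 libraries per genotype. The db/db mice (BKS.Cg-Dock7m+/+LeprdbJ) lack a working receptor for leptin, the satiety hormone of fat tissue, in all of their cells and serve as a model of diabetes with obesity, and the wild type mice (BKS.Cg-Dock7m+/+) share their background. The cells were gated on β-cell autofluorescence, and islets of several animals were pooled for each preparation, with more wild type than db/db mice in a pool. The table holds tRFs only, so the labelled cell type could not be checked against marker genes. In such bulk samples, fewer cells of a type and less RNA per cell cannot be told apart.

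Every cell has a pair of methionine tRNAs that read the same codon with the same anticodon, CAT in DNA letters. The initiator tRNA carries the methionine that starts each protein and is brought directly to the P site of the small ribosomal subunit, and the elongator tRNA carries the methionine put in at later codons. Each tRNA folds into a cloverleaf in which both ends pair in the acceptor stem, followed by an unpaired base and the CCA tail that is added after transcription and holds the amino acid. Small RNAs cut from either arm or from the middle are named 5′, 3′ and internal tRFs.

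RefSeq lists 16 nuclear tRNA-Met(CAT) genes in the mouse build GRCm38.p6, of which 9 are 72 bases and 7 are 73 bases long. Of these, 11 lie on chromosome 13, between 21167604 and 23530419, 3 on chromosome 15, and 1 each on chromosomes 3 and 8. That annotation does not separate initiator from elongator genes, and the deposited table gives no genome position, so single fragments were not assigned to genes.

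The fragments of iMet-CAT covered both ends of the tRNA, as the longest sequence of each class shows, with the bases of the acceptor stem in capitals (letters as deposited, T for U):
iMet-CAT 5′, 30 nt: AGCAGAGtggcgcagcggaagcgtgctggg
iMet-CAT 3′, 30 nt: tcgatggatcgaaaccatcCTCTGCTacca
All 7 bases of one stretch pair with the 7 of the other. The first base is an A that pairs with a T, a feature by which eukaryotic initiator tRNAs are told from elongators.

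Overlapping sequences of iMet-CAT could be joined into a run of 38 bases from the 5′ end, in which the anticodon, in capitals, lies at bases 33 to 35:
iMet-CAT, bases 1 to 38: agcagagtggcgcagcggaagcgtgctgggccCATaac
The 15 internal sequences of iMet-CAT could all be placed in this run. The most abundant pair of them, and the longest one that crosses the anticodon (capitals), show where they lie:
iMet-CAT internal, 30 nt: gcagagtggcgcagcggaagcgtgctgggc
iMet-CAT internal, 20 nt: agcggaagcgtgctgggccc
iMet-CAT internal, 28 nt: cgcagcggaagcgtgctgggccCATaac

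The 3′ sequences of Met-CAT carried 4 different ends, told apart by their last 13 bases. They are shown as their 17-nt fragments, with the bases that differ from the most abundant end in capitals:
main end: cctcagagggggcacca
G6C/G8C end: cctcaCaCggggcacca
G9A end: cctcagagAgggcacca
G12T end: cctcagaggggTcacca
Positions in these names are counted from 1 at the 5′ end of the 17-nt fragment, and the base of the main end comes first. Positions 7 to 13 form the 3′ strand of the acceptor stem, so G8C, G9A and G12T lie in it and G6C lies in the neighbouring T stem. The main end was carried by 15 sequences and 29654 counts over the 8 libraries, G6C/G8C by 9 sequences and 13429 counts, G9A by 9 sequences and 7086 counts, and G12T by 1 sequence and 146 counts.

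The libraries held 582165 to 2946290 counts of unique tRF molecules. Of these, 1446 to 9252 per library came from iMet-CAT and 2356 to 18902 from Met-CAT. The deepest library, db/db 3, therefore has the smallest relative counting error, which says nothing about the spread between preparations. Values are given in the order of libraries 1 to 4 of each genotype. Levels are counts relative to 1e6 tRF counts (CPM), scaled by edgeR's TMM factors. Of the totals of all counts that the deposited RPM values imply, tRFs made up 22.55% to 55.71% in wild type libraries. In db/db libraries they made up 20.01% to 55.42%, and CPM do not carry these differences between libraries.

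All fragments of iMet-CAT together stood at 2070, 2786, 3345 and 3389 CPM in wild type β-cells and at 4352, 3512, 3287 and 4272 CPM in db/db β-cells. The means were 2898 ± 615.9 and 3856 ± 535.7 CPM (SD, n = 4 each), and the libraries overlapped. The log2 fold change of db/db over wild type was 0.41 (SE 0.24), with an adjusted p of 0.396 (quasi-likelihood test of edgeR, Benjamini-Hochberg over all 48 names). The total of the initiator's fragments therefore did not pass the test.

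Fragments of Met-CAT stood at 4651, 9598, 4090 and 5094 CPM in wild type and at 6249, 4966, 6715 and 5444 CPM in db/db β-cells. Wild type 2 was the highest of all 8 libraries, and the other 7 lay between 4090 and 6715 CPM. The means were 5858 ± 2527 and 5843 ± 785.8 CPM (SD, n = 4 each), with −0.00 as the log2 fold change (SE 0.26, adjusted p = 0.99, edgeR). Without wild type 2 it was 0.31 (adjusted p = 0.411). In this test 2 of the 48 names (4.17%) were called, that is, had an adjusted p below 0.1 and a fold change above 2, and neither was a methionine tRNA. These were Phe-GAA, which was lower in db/db β-cells (log2 fold change −1.37), and Gly-GCC, which was higher (1.78); the other 44 names beside the methionine tRNAs did not pass.

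Among the 48 names in descending order, Met-CAT ranked 26th in wild type and 23rd in db/db β-cells. Its neighbours in wild type, Thr-CGT at 6004 ± 865.7 CPM and Arg-TCG at 5461 ± 955.6 CPM, lay within its SD. iMet-CAT ranked 37th and 33rd, and its wild type neighbours His-GTG (3280 ± 1053 CPM) and Val-AAC (2818 ± 1109 CPM) lay within its SD as well. The share of methionine counts that came from iMet-CAT was 30.81%, 22.5%, 44.99% and 39.95% in wild type and 41.05%, 41.43%, 32.86% and 43.96% in db/db libraries, so elongator fragments were the more abundant ones in every library.

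The pattern over libraries was compared between names as the root mean square difference of log2 CPM, each name centred on its own mean over the 8 libraries. For iMet-CAT the nearest names were Ala-AGC (0.147), His-GTG (0.235) and Cys-GCA (0.243), where the median over all 47 other names was 0.457. For Met-CAT they were Ala-CGC (0.17), Ser-AGA (0.236) and Leu-TAA (0.247). Met-CAT stood 25th of 47 in the list of iMet-CAT, at 0.478, so the methionine tRNAs were not near each other in this measure. All names share the same libraries and their depth.

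**Figure D1:**
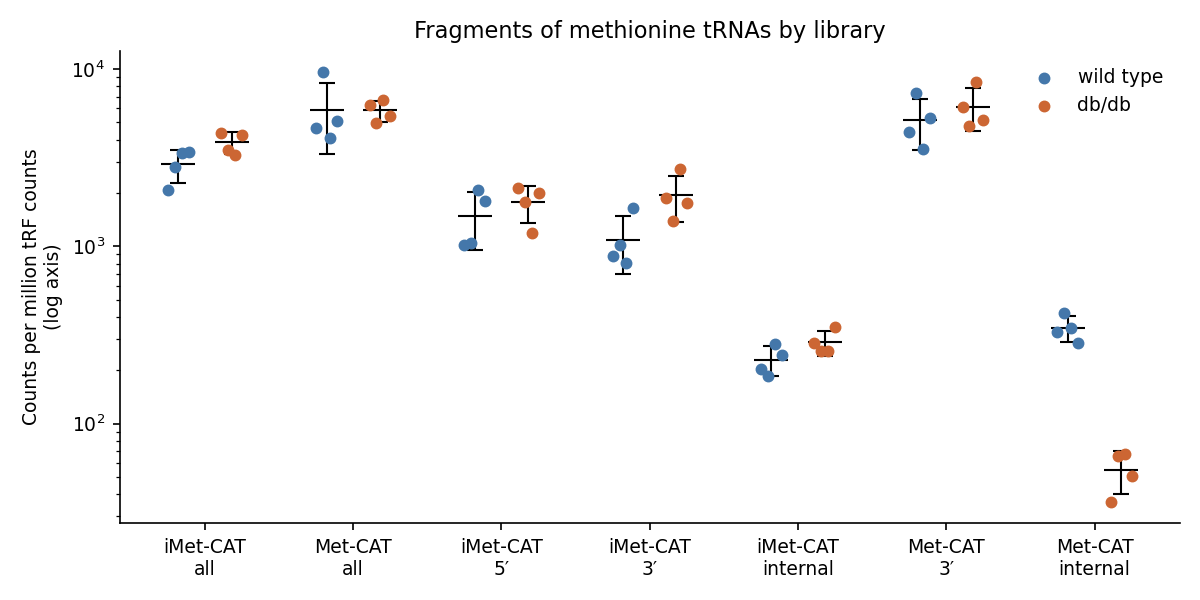
Level in CPM (log axis) of all fragments and of each class of iMet-CAT and Met-CAT, with 1 point per library, blue for wild type and orange for db/db, and the mean ± SD as bars (n = 4). The genotypes overlap in every column except the internal fragments of Met-CAT, where wild type lies between 286.7 and 422.3 CPM and db/db between 36.27 and 67.77 CPM.

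The fragments were then split by where they lie in the tRNA. A sequence was 3′ if it ended in the CCA tail, 5′ if it began at the commonest start among the other sequences of its tRNA, and internal otherwise. For iMet-CAT this gave 15 5′, 15 3′ and 15 internal sequences. For Met-CAT it gave 34 3′ and 5 internal sequences, and no 5′ class, since no start was shared by 5 sequences that do not end in the tail. The 2 Met-CAT sequences that could not be placed at the 3′ end came from its 5′ side, the anticodon of the second being in capitals:
Met-CAT, 29 nt: gcctccttagcgcagtaggcagcgcgtca
Met-CAT, 30 nt: gcagtaggtagcgcgtcagtctCATaatct
They held 36 and 23 counts over the wild type libraries and 36 and 18 over the db/db libraries, too few for a test.

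The 3′ share was the clearer of the 2 differences tested within libraries between the initiator and the elongator. It averaged 43.72% of the counts of iMet-CAT and 96.22% of those of Met-CAT, a difference of −52.5 percentage points (SD 9.21, n = 8 libraries). It was lower for iMet-CAT in 8 of 8 libraries, with differences from −65.72 to −33.82 points and p = 0.00781 in a two-sided exact sign-flip permutation test over libraries, the smallest it can give, and 0.0156 after adjustment over 2 tests. The 5′ share and the share of ends short of CCA could not be compared in this way. Met-CAT has no 5′ class under the rule used here, and its 2 sequences from the 5′ side count as internal. The table lists no short end for iMet-CAT. The table lists only sequences with at least 5 counts in at least 4 libraries, so neither is a measured zero.

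Fragments of iMet-CAT were also longer. Their count-weighted mean length was 22.48 nt, against 21.21 nt for Met-CAT, a difference of 1.269 nt (SD 1.083, exact sign-flip permutation p = 0.0234, adjusted p = 0.0234). The difference was positive in every library except wild type 2, where it was −0.8209 nt. Without the most abundant sequence of each tRNA it was 0.3834 nt, with an adjusted p of 0.336 in the same exact test.

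Within iMet-CAT, the 5′ share was 48.41%, 46.52%, 65.75% and 48.8% in wild type and 49.64%, 51.82%, 28.48% and 48.6% in db/db libraries. Its 3′ share was 41.91%, 45.17%, 25.32% and 44.61% in wild type and 43.75%, 40.72%, 65.39% and 42.86% in db/db libraries. Wild type 3 was richest in 5′ fragments and db/db 3 in 3′ fragments, while the remaining 6 libraries lay close together. The mean difference of db/db from wild type was −7.733 points for the 5′ share (exact permutation p = 0.543) and 8.93 points for the 3′ share (p = 0.486). Without these libraries, an alternative added after seeing the data, the differences turned to 2.113 and −1.449 points.

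The 3′ family of iMet-CAT, that is, the sum of its 3′ sequences, stood at 880.8, 1014, 801.9 and 1652 CPM in wild type and at 1881, 1398, 2733 and 1762 CPM in db/db β-cells. Wild type 4 reached above the lowest db/db library, so the genotypes overlapped. The log2 fold change was 0.84 (SE 0.32) with an adjusted p of 0.0827 in edgeR's test over 110 families, which is below 0.1, but the 1.788-fold difference did not reach the limit of 2. Of the 110 families, 19 (17.3%) were called. Without wild type 4 the log2 fold change was 1.11 (adjusted p = 0.017), a call, and without db/db 3 it was 0.63 (adjusted p = 0.205). With library sizes implied by the deposited RPM and log2 values it was 0.34 and 0.30 (adjusted p = 0.715 and 0.83, edgeR). It was 0.78 without a factor (adjusted p = 0.211) and 0.79 with tolerant classes (adjusted p = 0.351). With RLE factors and with DESeq2 it was 0.96 (adjusted p = 0.0522 and 0.0244), and no call. The 5′ family (log2 fold change 0.25, SE 0.32, adjusted p = 0.653) and the internal family (0.32, SE 0.28, adjusted p = 0.533) were not called.

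Both ends of iMet-CAT were present at every length from 16 to 30 nt. Among 5′ fragments, 16 nt was the most frequent length in the mean of each genotype, with 26.57%, 22.79%, 20.36% and 16.3% of the 5′ counts in wild type and 12.51%, 16.67%, 16.7% and 12.61% in db/db libraries, which overlap narrowly. Next in the mean were 22 nt, at 14.21% ± 1.858 in wild type and 14.01% ± 0.9064 in db/db, and 30 nt, at 10.45% ± 3.334 and 12.97% ± 2.97 (SD, n = 4). In db/db 1 and db/db 4 the 22-nt share, 14.35% and 14.42%, was above that of 16 nt. The 3′ fragments were, in the mean of each genotype, most often 16 nt (13.1% ± 3.077 and 12.84% ± 1.613), and 21 to 24 nt, 27 nt and 29 nt each held between 8.847% and 10.93% in the mean of either genotype. At all 30 combinations of end and length the genotypes overlapped. The 30-nt limit of the table lies before the anticodon of this tRNA, so longer pieces were not analysed here. The table also holds no sequence below 16 nt, so whether shorter fragments were more frequent was not measured.

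**Figure D2:**
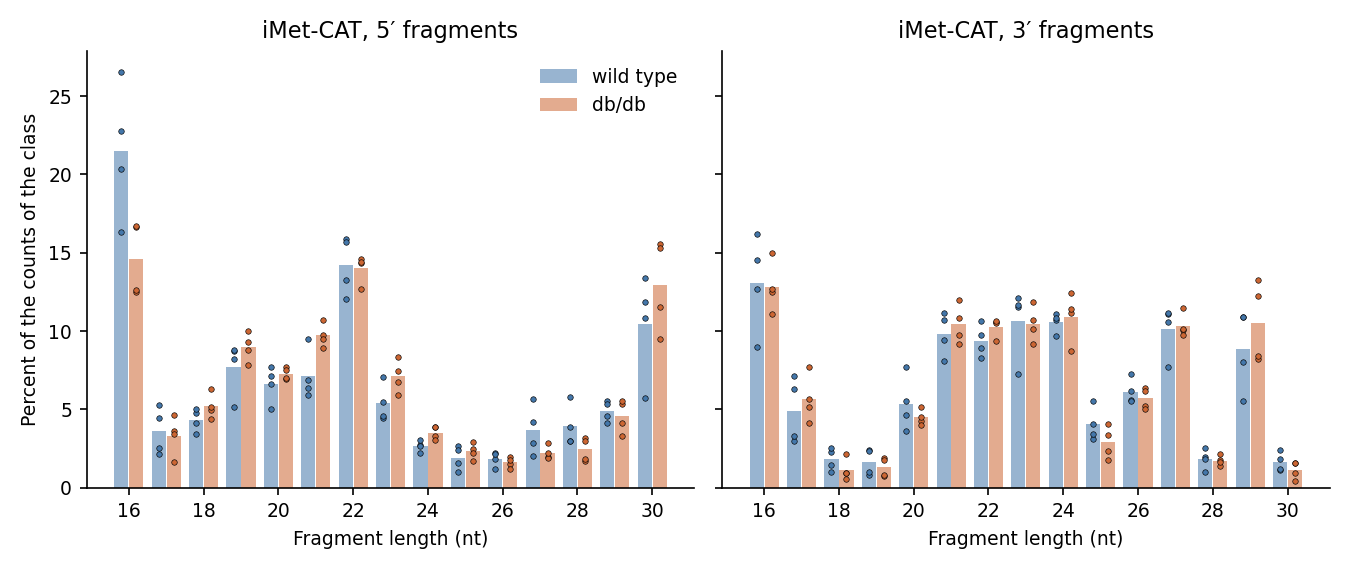
Percent of the 5′ counts (left) and of the 3′ counts (right) of iMet-CAT at each fragment length in nt. Bars are the means of 4 libraries, blue for wild type and orange for db/db, and points are libraries. The 5′ fragments peak at 16, 22 and 30 nt, and 3′ fragments at 16 nt with a broad range from 21 to 24 nt. Lengths below 16 nt and above 30 nt are not in the table.

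The 2 most abundant 5′ sequences of iMet-CAT were those of 16 and 22 nt. The 16-nt one, agcagagtggcgcagc, stood at 331, 276.1, 433.3 and 262.6 CPM in wild type and at 256, 278, 183 and 235.4 CPM in db/db β-cells. The genotypes overlapped, with a log2 fold change of −0.45 (SE 0.33, adjusted p = 0.474, edgeR). The 22-nt one, agcagagtggcgcagcggaagc, stood at 197.5, 146.2, 282.2 and 252.5 CPM and at 293.6, 211.2, 160.1 and 269.1 CPM, with a log2 fold change of 0.09 (SE 0.34, adjusted p = 0.911). Neither 5′ fragment of the initiator passed the test.

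The 2 most abundant 3′ sequences of iMet-CAT had higher means in db/db β-cells without passing the test. The 16-nt one, ccatcctctgctacca, stood at 156.6, 148.9, 132.7 and 132.8 CPM in wild type and at 226, 196.7, 319.8 and 183 CPM in db/db β-cells. Every db/db library lay above every wild type library, with 0.70 as the log2 fold change (SE 0.33, adjusted p = 0.228, edgeR). The 24-nt one, gatcgaaaccatcctctgctacca, stood at 115.7, 113.7, 90.69 and 159.9 CPM and at 157.4, 146.2, 313.6 and 187.4 CPM, so that wild type 4 lay above the lower pair of db/db libraries (log2 fold change 0.75, SE 0.36, adjusted p = 0.234).

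The internal sequences of iMet-CAT, 6.128% to 9.682% of its counts in a library, began between bases 2 and 15 and ended between bases 30 and 38. Of the 15, 7 ended at base 33, the first base of the anticodon, and these held 46.43% to 61.25% of the internal counts of a library. The 30-nt sequence that begins at base 2 and ends at base 31 held another 15.7% to 35%. It stood at 53.52 ± 23 CPM in wild type and at 57.57 ± 6.826 CPM in db/db β-cells (SD, n = 4; log2 fold change 0.12, SE 0.40, adjusted p = 0.893, edgeR). The 20-nt one, which ends at base 33, stood at 32.77 ± 4.547 and 36.26 ± 8.094 CPM (log2 fold change 0.15, SE 0.43, adjusted p = 0.873). A further sequence ends in the letters CCA inside the anticodon, at base 34, and was counted as internal after the table had been seen:
iMet-CAT internal, 24 nt, last 3 bases in capitals: cgcagcggaagcgtgctgggcCCA

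The test of single sequences ran on 1832 sequences of the table, among them 72 of the 84 methionine sequences. The 12 that had too few counts were 8 internal ones of iMet-CAT, 2 3′ ones of Met-CAT and 2 internal ones of Met-CAT. A call again needed an adjusted p below 0.1 and a fold change above 2. Among all tested sequences, 275 (15.0%) were called, 102 (5.57%) of them higher and 173 (9.44%) lower in db/db β-cells. Of the 72 methionine sequences 8 were called, 5 higher and 3 lower, which is no larger a share than in the whole table. Of the 8, 5 passed the filter on low counts in both genotypes. The other 3 passed it only through the genotype in which they were high, 1 through db/db and 2 through wild type. The filter therefore favoured their direction, and they add no support. The genotypes did not overlap in 11 of the 72, against 17.1% of all sequences.

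All of the calls were in the elongator tRNA. Of the 37 tested sequences of iMet-CAT 0 were called by edgeR and 0 by DESeq2, 5 had an unadjusted p below 0.05 in edgeR, and the lowest adjusted p was 0.149. In edgeR's test 1 was called without wild type 4 and 1 without db/db 2. The log2 fold changes of the 37 lay between −0.56 and 1.12 with a median of 0.31, where the median over all sequences was 0.00. The median was 0.66 over its 15 3′ sequences, 0.28 over its 15 5′ sequences and 0.26 over its 7 tested internal ones. Of these, 1 3′, 1 5′ and 2 internal sequences passed the filter through db/db alone, and 1 5′ sequence through wild type alone. The 1.12 belongs to an internal one that passed through db/db alone, so nothing is read from it. Whether the genotype difference itself differs between the initiator and the elongator was not tested.

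**Figure D3:**
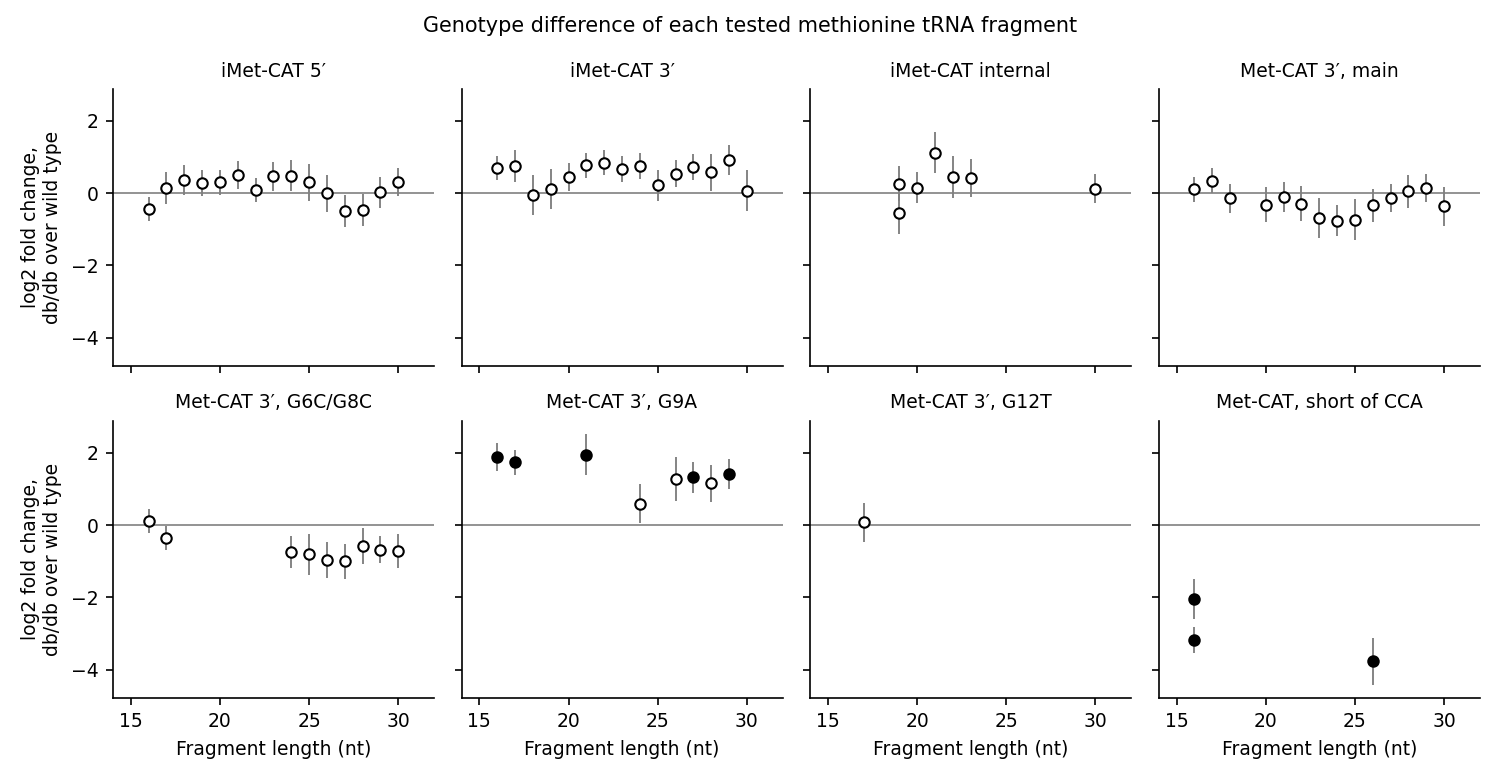
Log2 fold change (db/db over wild type) of each of the 72 tested methionine tRNA fragments against its length in nt, by tRNA, class and 3′ end, with bars for 1 SE and filled circles for called sequences. The 8 called sequences are 5 of the Met-CAT G9A end, all above 0, and 3 Met-CAT fragments short of CCA, all below 0.

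The 5 sequences that rose were all 3′ fragments of Met-CAT with the G9A end, and the 24 tested 3′ sequences with other ends included no call. Without wild type 3, the 26-nt and 27-nt fragments of the G6C/G8C end were called lower (log2 fold change −1.25 for both, adjusted p = 0.0587 and 0.0708, edgeR). The grouping by end was made after the calls had been seen, so it is a description without a test. The most abundant of the 5, the 17-nt fragment cctcagagAgggcacca, stood at 185, 119.1, 144.4 and 94.99 CPM in wild type and at 457.9, 314, 628.8 and 396.1 CPM in db/db β-cells. This is a log2 fold change of 1.73 (SE 0.35, adjusted p = 0.000926 in edgeR's test). The 17-nt fragment of the main end, 1 base different, stood at 1826, 1620, 1114 and 968.5 CPM and at 1740, 1296, 2402 and 1542 CPM, with a log2 fold change of 0.34 (SE 0.34, adjusted p = 0.63). The former separated the genotypes completely and the latter did not.

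The 16-nt G9A fragment, 1 base shorter at its 5′ end, stood at 105, 70.38, 77.26 and 45.57 CPM in wild type and at 244.4, 173.3, 462.1 and 213.2 CPM in db/db β-cells (log2 fold change 1.89, SE 0.39, adjusted p = 0.00112). Its counterpart with the main end stood at 695.7, 521.1, 493.8 and 369.9 CPM and at 466.6, 476.5, 832.2 and 450.3 CPM (log2 fold change 0.10, SE 0.34, adjusted p = 0.891). The other 3 called G9A fragments were longer and less abundant, and their sequences show how far they reach into the T arm:
Met-CAT 3′, G9A end, 21 nt: cgaacctcagagagggcacca
Met-CAT 3′, G9A end, 27 nt: tgagttcgaacctcagagagggcacca
Met-CAT 3′, G9A end, 29 nt: cctgagttcgaacctcagagagggcacca
The 21-nt one rose from 4.938 ± 1.696 to 18.61 ± 5.474 CPM (SD, n = 4; log2 fold change 1.95, SE 0.58, adjusted p = 0.0256). It held 2 to 5 counts per library in wild type and 8 to 64 in db/db β-cells and passed the filter through db/db alone, and without db/db 1, db/db 3 or db/db 4 it had too few counts for a test. The 27-nt one rose from 31.02 ± 13.4 to 77.83 ± 16.55 CPM (1.32, SE 0.43, adjusted p = 0.0412), and the 29-nt one from 43.99 ± 17.86 to 117.8 ± 29.11 CPM (1.41, SE 0.41, adjusted p = 0.0194). Without db/db 1 the 27-nt one was not called (1.24, adjusted p = 0.126). Of the called G9A fragments, those of 16, 17, 27 and 29 nt passed the filter in both genotypes. In these the lowest db/db library lay above the highest wild type library.

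The remaining 3 tested G9A fragments, of 24, 26 and 28 nt, had log2 fold changes of 0.59, 1.28 and 1.15 and were not called. Like the 21-nt one, they passed the filter on low counts through db/db alone, so their direction adds nothing to that of the 4 G9A fragments (16, 17, 27 and 29 nt) that passed it in both genotypes. The 26-nt one was called without wild type 2 (2.22, adjusted p = 0.0176). The 14 tested sequences of the main end lay between −0.76 and 0.34, and 8 of the 9 of the G6C/G8C end lay below 0. The single G12T sequence had a log2 fold change of 0.08. Fragments of one end overlap each other in sequence and are not independent of each other.

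The scaling mattered for the calls of the G9A sequences. With library sizes set to the totals of all counts that the deposited RPM values imply, which moved the median of all sequences to −0.34, none of the 5 was called, and the 17-nt fragment had a log2 fold change of 1.48 (adjusted p = 0.125). With the library sizes implied by the deposited log2 values, which moved the median to −0.49, none was called either, and the value was 1.45 (adjusted p = 0.435).

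Shares within the 3′ end of Met-CAT do not depend on the scaling. The G9A end made up 8.706%, 4.724%, 7.832% and 5.282% of the 3′ counts of Met-CAT in wild type and 18.47%, 18.01%, 18.72% and 17.48% in db/db libraries. The means were 6.636% ± 1.932 and 18.17% ± 0.544 (SD, n = 4), a ratio of 2.738, and the lowest db/db library was above the highest wild type library. The main end held 58.59% ± 8.019 and 58.68% ± 3.46. The G6C/G8C end held 24.16%, 44.32%, 27.37% and 41.86% in wild type and 26.15%, 24.45%, 17.71% and 23.11% in db/db libraries, with overlap. At 17 nt alone there were 10.14, 7.352, 12.97 and 9.809 G9A fragments per 100 main fragments in wild type, and 26.32, 24.23, 26.18 and 25.69 in db/db libraries. At 16, 17, 27 and 29 nt, the lengths whose G9A fragment passed the filter in both genotypes, the db/db mean of this ratio was between 2.544 times (17 nt) and 3.388 times (16 nt) the wild type mean, without overlap. At 18, 24 and 28 nt, where the G9A fragment was not tested or passed through db/db alone, the genotypes overlapped. At 21 and 26 nt, where it passed through db/db alone, they did not, and nothing is read from those lengths.

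Fragments of the elongator ends also differed in length. In the main end, fragments of 16 to 19 nt held 63.1% ± 10.5 of the counts in wild type and 69.9% ± 2.149 in db/db libraries, and in the G9A end 62.86% ± 12.75 and 69.19% ± 6.038. In the G6C/G8C end they held 25.13% ± 10.39 and 29.88% ± 5.743, nearer to the 3′ fragments of iMet-CAT (21.48% ± 2.293 and 21% ± 3.35). The libraries of the main end (51.73% to 72.06%) and those of the G6C/G8C end (13.4% to 37.16%) did not overlap. This split by length was chosen after the values had been seen.

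The 3 sequences that fell were fragments of Met-CAT that stop 1 to 3 bases before the end of CCA. They are set beside their complete partners, with the CCA bases that are present in capitals:
main end, 1 base short, 16 nt: cctcagagggggcaCC
main end, complete, 17 nt: cctcagagggggcaCCA
G9A end, 1 base short, 16 nt: cctcagagagggcaCC
G9A end, complete, 17 nt: cctcagagagggcaCCA
G6C/G8C end, 3 bases short, 26 nt: cgtgagttcgatcctcacacggggca
G6C/G8C end, complete, 29 nt: cgtgagttcgatcctcacacggggcaCCA

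The main fragment 1 base short stood at 318.5, 377.6, 295.6 and 197.7 CPM in wild type and at 26.08, 36.1, 36.6 and 31.97 CPM in db/db β-cells, without overlap. This is a log2 fold change of −3.18 (SE 0.37, adjusted p = 3.13e-06 in edgeR's test). The G9A fragment 1 base short stood at 21.35, 51.43, 30.23 and 23.17 CPM and at 3.864, 10.83, 7.486 and 8.882 CPM (−2.04, SE 0.55, adjusted p = 0.0108). With 4 to 18 counts per db/db library it passed the filter through wild type alone, so its direction is not set against that of its complete partner. The G6C/G8C fragment 3 bases short stood at 21.35, 43.31, 16.8 and 23.17 CPM in wild type and at 1.932, 0, 2.495 and 1.776 CPM in db/db β-cells (−3.77, SE 0.66, adjusted p = 0.000207). The value of 0 in db/db 2 rests on 0 of 582165 counts, which allows up to 5.41 CPM, and such limits cover counting error only. With 0 to 6 counts per db/db library, it also passed the filter through wild type alone.

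Set against the complete partner in the same library, there were 17.45, 23.31, 26.55 and 20.41 short fragments per 100 complete ones at the main end in wild type, and 1.499, 2.786, 1.524 and 2.074 in db/db libraries. At the G9A end there were 11.54, 43.18, 20.93 and 24.39 in wild type and 0.8439, 3.448, 1.19 and 2.242 in db/db libraries. At the G6C/G8C end there were 4.762 ± 1.099 in wild type and 0.4216 ± 0.2837 in db/db libraries. Only at the main end did the short fragment pass the filter in both genotypes. There the lowest wild type library lay above the highest db/db library, and the ratio of the means was 11.13. At the other ends it passed through wild type alone, so nothing is read from their separation.

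Short ends together made up 6.297%, 5.276%, 8.685% and 4.928% of the counts at the Met-CAT 3′ end in wild type and 0.5389%, 1.035%, 0.5937% and 0.8719% in db/db libraries. The difference of −5.537 percentage points had an exact permutation p of 0.0286 (two-sided), which is the lowest value possible with 4 libraries against 4, and an adjusted p of 0.105 over the 11 shares and lengths tested. At least 7 of the 11 tests would have had to reach the smallest p for any to pass 0.05, and the 3′ and the internal share of Met-CAT, which hold the same fragments, were the other two that reached it. When ends up to 3 bases short count as 3′, these other two differed by only 0.2019 and −0.2019 points (exact permutation p = 0.2), since the short fragments then leave the internal class. The short share itself kept its p of 0.0286 (exact permutation), with an adjusted p of 0.314. The remaining 8 had raw p-values of 0.143 to 0.914 in the same exact test. Of sequences of any tRNA, 144 of 161 tested sequences short of CCA were called lower and the median log2 fold change was −3.10, so the low level of the 3 elongator fragments was not particular to this tRNA.

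The internal family of Met-CAT, which consists of these 3 short fragments and the 2 from its 5′ side, fell as a whole. It stood at 329.9, 422.3, 346.7 and 286.7 CPM in wild type and at 36.27, 65.48, 67.77 and 50.39 CPM in db/db β-cells (log2 fold change −2.65, SE 0.31, adjusted p = 1.02e-06, edgeR). When short ends count as 3′, only the 2 fragments from the 5′ side remain in it, with too few counts for a test. The 3′ family, with the complete ends, stood at 5127 ± 1623 and 6147 ± 1650 CPM (SD, n = 4; log2 fold change 0.26, SE 0.31, adjusted p = 0.639) and was not called.

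**Figure D4:**
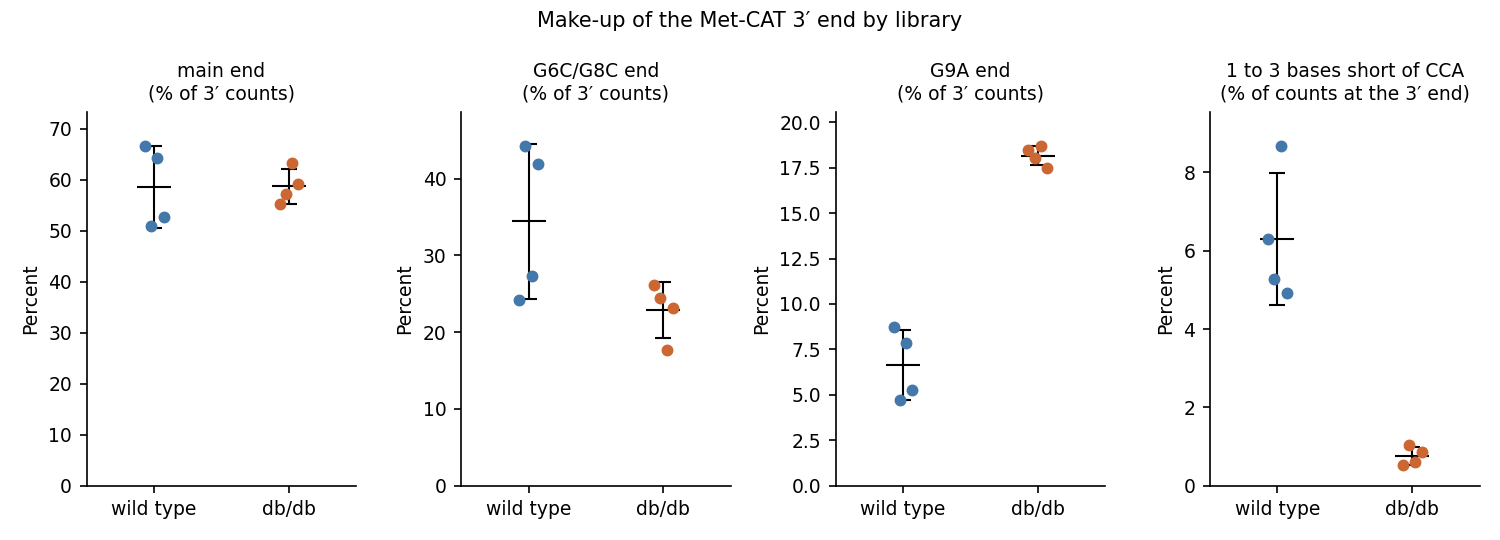
Make-up of the Met-CAT 3′ end in each library, with 1 point per library, wild type in blue, db/db in orange, and the mean ± SD (n = 4) as bars. The first 3 panels give the percent of the 3′ counts with the main, the G6C/G8C and the G9A end, and the last the percent of counts at the 3′ end that are 1 to 3 bases short of CCA; the genotypes separate in the last pair of panels.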

How the data were processed

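Small RNA of sorted β-cells from 4 wild type and 4 db/db preparations was analysed. By the study's account, miRNeasy RNA was made into QIAseq miRNA libraries with unique molecular identifiers and sequenced single-end, adapters were removed, reads over 16 nt were collapsed by identifier and aligned to GRCm38.p6, and tRFs were matched with bowtie 1, without mismatch, to GtRNAdb and mitochondrial tRNAs. The authors deposited, for each sequence and library, the count of unique molecules, not normalised. The deposited table also gives an RPM rounded to a whole number, used here as a score, and a log2 normalised value, for which the sources used here name no method. The authors' own direction of change per sequence was not used. No column of per-library values lacked a sample.

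Libraries were grouped by the genotype label, and replicate numbers follow label order. The labels state no batch and no pairing, and nothing says more of the replicates than that they are separate preparations, so p-values measure the spread between preparations. The members, lists and tests were chosen with earlier results of these data known.

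Counts of all 2226 sequences, and sums per name and per name and class, went into edgeR 4.0.16 (R 4.3.3; TMM, filterByExpr with minimum count 10 and minimum total 15, quasi-likelihood test, 8 libraries, no term other than genotype). Each level has its own TMM factors, so CPM are not additive between levels. Calls needed a Benjamini-Hochberg adjusted p below 0.1 and a fold change above 2. SE is the log2 fold change over the square root of F. Shares and mean lengths were compared by two-sided exact permutation over 70 assignments, and iMet-CAT with Met-CAT by exact sign flips, at 0.05. The procedure was tested on simulated counts with known changes.

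No genome sequence or mature tRNA was used here, so classes were read from the sequences: 3′ ends in CCA, 5′ shares the commonest first 8 bases found in at least 5 sequences of its name that do not end in CCA, where no sequence of the name holds these bases further inside, internal is the rest, and a short end overlaps a complete one by at least 12 bases. The single sequence ending in a CCA inside its tRNA was counted as internal, against the rule as first written.

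Alternatives were RLE factors, no factor, library sizes implied by the RPM or by the log2 values, DESeq2 1.42.0, no filter, 10 counts in 4 libraries, adjusted p below 0.05, no fold change limit, tolerant classes (starts at bases 1 to 3, ends up to 3 bases short), leaving out the most abundant sequence of each tRNA, sequences past the filter only, and leaving out each library. The literal CCA rule and leaving out wild type 3 together with db/db 3 were chosen after seeing the data. Sequences were named by rule: the 2 most abundant per tRNA and class, up to 5 calls per direction, and the 3 nearest names. Sequences and ends named beyond it were chosen after their values were seen.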

Additional observations from a re-analysis of the deposited data

Results flagged for a closer look

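Within a genotype, 5 of 76 groups of 4 libraries held a library whose gap to the nearest other one exceeded Dixon's 95% critical value of 0.829 as a share of the group's range. Chance flags about 1 in 20 groups. The groups are not independent, since shares of one tRNA add up.

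In 4 of the 5 the value is a share of iMet-CAT counts in the third library of a genotype. The 5′ share was 65.75% in wild type 3, where the other 3 lay between 46.52% and 48.8%, and 28.48% in db/db 3, where the others lay between 48.6% and 51.82%. The 3′ share was 25.32% in wild type 3, where the others lay between 41.91% and 45.17%, and 65.39% in db/db 3, where the others lay between 40.72% and 43.75%. The internal share of iMet-CAT in these libraries was not set apart in this way. The cause was not tested.

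The fifth is the 16-nt 3′ fragment of Met-CAT with the main end (ctcagagggggcacca), at 832.2 CPM in db/db 3, where the other db/db libraries lay between 450.3 and 476.5 CPM. db/db 3 is also the deepest library, with 2946290 tRF counts. Its part in the value was not tested.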

How the results depend on the processing

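No paired analysis was possible because replicate numbers shared by the genotypes are absent from the labels. Several results changed with the scaling. With library sizes from the implied totals of all counts, 3 methionine sequences were called (0 higher, 3 lower), and with those from the log2 values 2 were called (0 higher, 2 lower), where the median of all sequences moved to −0.34 and −0.49 and the 26-nt fragment short of CCA had too few counts to be tested under the latter. Under these scalings, in that order, the 5′ family of iMet-CAT had a log2 fold change of −0.23 and −0.45, its internal family −0.20 and −0.37, and the 3′ family of Met-CAT −0.39 and −0.50, with the median of all families at −0.58 and −0.67. The iMet-CAT total turned to −0.08 under the latter, and the Met-CAT total to 0.06 without a factor. Among named sequences the values were −0.24 and −0.43 for the 22-nt 5′ fragment of iMet-CAT, −0.25 and −0.44 for its 20-nt and −0.18 and −0.30 for its 30-nt internal fragment, and −0.01 and −0.09 for the 17-nt and −0.17 and −0.19 for the 16-nt main fragment of Met-CAT. The other G9A fragments lost their call there, with log2 fold changes of 1.68 and 1.70 (16 nt), 1.72 and 1.70 (21 nt), 0.85 and 0.66 (27 nt), and 0.98 and 0.83 (29 nt).

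Leaving out 1 library left 6 to 10 calls among methionine sequences, in which 1 iMet-CAT 3′ sequence was called without wild type 4 and 1 without db/db 2, the 26-nt G9A fragment without wild type 2, and the 26-nt and 27-nt G6C/G8C fragments without wild type 3. The 27-nt G9A fragment lost its call without db/db 1 (1.24, adjusted p = 0.126, edgeR), and the 21-nt one had too few counts for a test without db/db 1, db/db 3 or db/db 4 and with 10 counts in 4 libraries, so that its call was gone in these 4 alternatives. The Met-CAT total ranged from −0.14 to 0.31, with 0.07 without db/db 2 and 0.06 without db/db 4, and the 3′ family of iMet-CAT from 0.63 to 1.11. The 22-nt 5′ fragment turned to −0.10 without wild type 2 and −0.04 without db/db 1 (range to 0.28), the 30-nt internal fragment to −0.06 without wild type 2 (range to 0.49), and the 16-nt main fragment to −0.02 without wild type 4 and −0.11 without db/db 3 (range to 0.33). The difference of the Met-CAT share of tRF counts, 0.02419 percentage points, ranged from −0.04507 to 0.1591 and turned to −0.01697, −0.0002484 and −0.03301 without wild type 1, wild type 4 and db/db 1.

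Without wild type 3 and db/db 3 it was −0.05707 points, the 5′ and 3′ shares of iMet-CAT differed by 2.113 and −1.449 points, and iMet-CAT minus Met-CAT was −53.41 points for the 3′ share and 0.9676 nt for the mean length (adjusted p = 0.0625 and 0.0938, exact sign-flip permutation over 6 libraries). Without the most abundant sequence of each tRNA the Met-CAT share differed by −0.02595 points, the iMet-CAT mean length by −0.1113 nt, and iMet-CAT minus Met-CAT by 0.3834 nt (adjusted p = 0.336, exact permutation). With tolerant classes the 3′ and internal shares of Met-CAT differed by 0.2019 and −0.2019 points in place of 5.716 and −5.716 (exact permutation p = 0.2), because the short ends then count as 3′, and the adjusted p of the short share rose from 0.105 to 0.314. The internal family of Met-CAT kept its call under the 17 alternatives that could test it (−3.36 to −2.44). Tolerant classes left it too few counts for a test. The cause of each change was not tested. Low counts kept 12 methionine sequences out of the test.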
